A study of Rattus norvegicus with 15 samples.

Results

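The 10 genes described here carry the calcium cycle of a muscle cell. They were chosen by name, with earlier results of these data known: Atp2a1, Atp2a2, Ryr1, Casq1, Casq2, Pln, Slc8a1, Cacna1s, Cacna1c and Stim1. The deposited table of 19328 entries held 9 of the 10, and 7 passed the filter for testing, which required 1 FPKM (fragments per kilobase of transcript, scaled to the library's total) or more in at least 3 of 15 libraries. Ryr1 and Pln were below 1 FPKM in every library, and the expression of Atp2a1 was not analysed here. The cells were H9c2, a line of muscle precursor cells from the heart of a rat embryo, with features of both cardiac and skeletal muscle. The labels list them as cardiomyocyte cells. Total RNA was sequenced from 5 groups of 3 libraries. The con group received PBS and carries the genotype tag WT, while the other 4 groups carry their group name under that tag, although the protocol describes drug treatments only. DOX, the usual abbreviation of the anthracycline doxorubicin, was given at 2 μM for 24 hours in those 4 groups. DSI+DOX cells also received 50 μL of danshen injection, a preparation of Salvia miltiorrhiza root, at a dilution of 1 in 20. AXT+DOX cells also received 5 μM astaxanthin, a carotenoid, and DMT+DOX cells 10 μM diosmetin, a flavonoid. Each addition preceded DOX by 4 hours, and none was given without DOX.

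In striated muscle an action potential opens L-type calcium channels, and ryanodine receptors then release calcium from the sarcoplasmic reticulum (SR), where calsequestrin stores it. SERCA pumps return the calcium to the SR, and the sodium-calcium exchanger carries it out of the cell. In cells with few ryanodine receptors, release through inositol trisphosphate receptors and store-operated entry, in which STIM1 senses an emptied store and opens ORAI channels, carry more of the cycle. Disturbed calcium handling is a known feature of anthracycline injury in the heart.

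The sum of FPKM per library ran from 433383 to 468608 in 14 libraries and was 548227 in DSI+DOX replicate 3. That library stood apart: its log2 values correlated with those of the other two in its group at Pearson r = 0.953 and 0.963, against at least 0.991 in every other pair within a group. Relative to the mean of those 2 libraries, 98 of 11288 tested genes were over 2-fold higher in it and 882 over 2-fold lower. It entered every fit, and results that rest on it are given with and without it. The markers matched the cardiomyocyte label only in part. Tnnc1 (troponin C of slow and cardiac muscle) was at 295 to 841 FPKM in the 15 libraries, Tnnt2 (cardiac troponin T) at 57.5 to 213, and the cardiac transcription factor genes Nkx2-5 and Gata4 at 4.57 to 8.33 and 3.25 to 5.16, but the cardiac myosin gene Myh6 did not exceed 0.127 FPKM, Tnni3 (cardiac troponin I) 0.321 FPKM and the alpha-actinin gene Actn2 0.0699 FPKM. The 14 cardiac markers measured summed to 501–537 FPKM in con, 421–469 in DOX, 512–1049 in DSI+DOX, 390–436 in AXT+DOX and 522–600 in DMT+DOX. The 14 skeletal muscle markers summed to 187–207 FPKM in con, 39.0–41.0 in DOX, 55.6–69.1 in DSI+DOX, 31.3–37.6 in AXT+DOX and 69.4–75.2 in DMT+DOX. They did not move together: Myog, the largest in con, was at 90.5–98.4 FPKM in con and 2.22–2.60 in DOX, Myod1 at 17.4–18.7 and 18.8–20.7, and Chrna1 at 0.208–0.376 and 1.27–1.63. The 6 smooth muscle markers summed to 4205–4487 FPKM in con and 2877–3056 in DOX, and the 8 fibroblast markers to 4790–4993 and 2472–2896. The 4 endothelial markers measured summed to 0.260 FPKM or less, and the 5 blood and macrophage markers to 2.22 FPKM or less, in every library. The cardiac, skeletal muscle, smooth muscle and fibroblast sums were thus lower in DOX than in con, and their part in the results was not tested. The cardiac, smooth muscle and fibroblast markers did not move together either. Tnnt2 was at 194–213 FPKM in con and 73.0–88.7 in DOX, but Tnnc1 at 295–314 and 336–368. Nkx2-5 and Gata4 were higher in DOX as well. Acta2 was at 3124–3344 and 1819–1935, but Tagln at 930–993 and 975–1040. Col1a1 was at 3101–3206 and 1464–1736, but Thy1 at 139–156 and 158–177. In such bulk samples fewer cells of a type and less RNA per cell cannot be told apart.

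In con cells the RNA levels of these genes were led by Atp2a2 and Casq2, with almost no ryanodine receptor RNA. FPKM is scaled to transcript length, so the levels can be ordered between genes. Atp2a2, which encodes the SERCA2 pump, was highest in con at 108 ± 2.45 FPKM (mean ± SD, n = 3 here and below). Casq2, the cardiac calsequestrin, followed at 70.9 ± 0.271 FPKM. Stim1 stood at 20.6 ± 0.351 FPKM and the sodium-calcium exchanger gene Slc8a1 (NCX1) at 12.0 ± 0.623 FPKM. Casq1, the skeletal calsequestrin, was at 7.91 ± 0.861 FPKM and Cacna1c, the pore subunit of the cardiac L-type channel, at 5.93 ± 0.399 FPKM. Each of these 6 genes lay above the next in every con library. Pln, which encodes the SERCA inhibitor phospholamban, was at 0.410 ± 0.147 FPKM, Cacna1s, the skeletal L-type pore subunit, at 0.254 ± 0.0569 FPKM, and Ryr1, the skeletal ryanodine receptor, at 0.143 ± 0.0112 FPKM. The con libraries of Pln and Cacna1s overlapped, so those neighbours in the order could not be separated. In DOX, Casq1 moved above Slc8a1 without overlap, and Slc8a1 and Cacna1c overlapped. The 3 highest genes kept their order by group mean in all 5 groups, and the only overlap among them was between Atp2a2 and Casq2 in DSI+DOX.

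**Figure D1:**
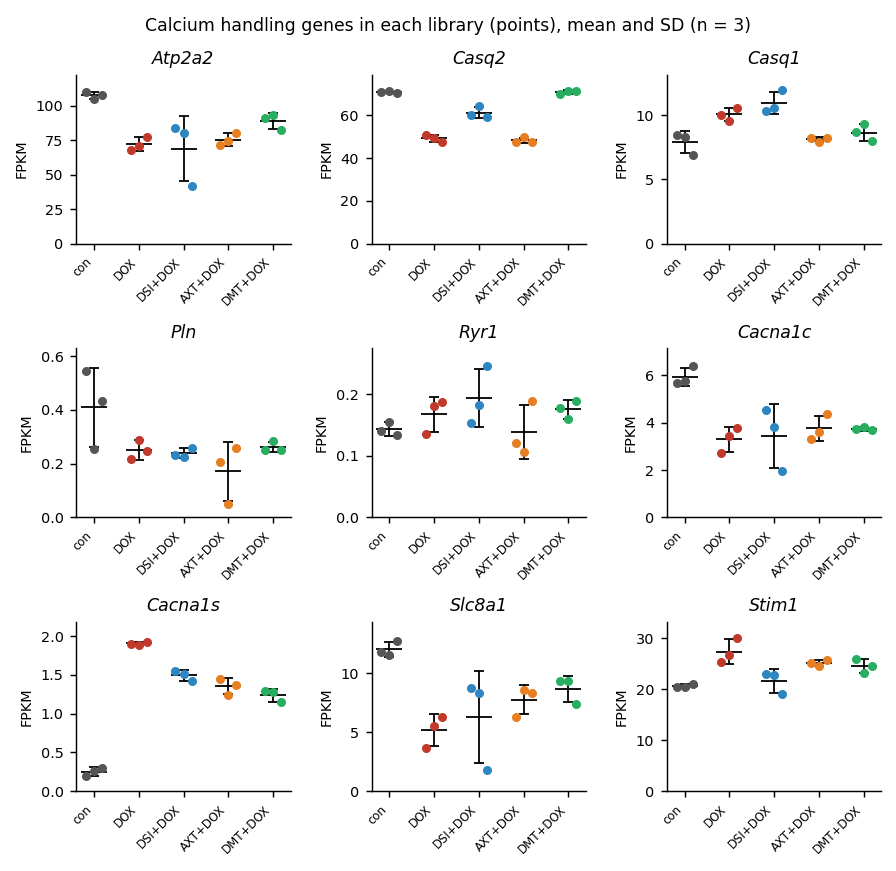
FPKM (y axis, from 0) of the 9 calcium handling genes in the table, by group (x axis); points are the 3 libraries, bars the mean and SD. Casq2 was at 70.7–71.2 FPKM in con and 47.6–50.7 in DOX, Cacna1s was at 0.303 FPKM or less in con and 1.89 or more in DOX, and the lowest points of Atp2a2, Slc8a1 and Cacna1c are DSI+DOX replicate 3.

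The promoters of the paralogue members are shown because Casq1 and Casq2, and likewise Cacna1s and Cacna1c, differed in opposite directions between DOX and con. The 250 bases before the annotated start of each gene were taken from RefSeq (build GRCr8, whereas the table was made on Rnor_6.0) for all 10 genes. They are printed for Casq1, Casq2 and Cacna1s with matches to 3 of the motifs searched in capitals. Those are CAGCTG, an E-box that myogenic bHLH factors can bind, TATAAA, and the MEF2 consensus.
Casq1 promoter, chr13:87212711-87212960, minus strand: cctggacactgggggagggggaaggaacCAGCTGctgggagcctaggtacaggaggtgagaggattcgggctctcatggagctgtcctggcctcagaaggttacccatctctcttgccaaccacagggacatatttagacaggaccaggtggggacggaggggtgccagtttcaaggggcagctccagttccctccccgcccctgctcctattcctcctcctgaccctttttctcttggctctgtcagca
Casq2 promoter, chr2:192214306-192214555, plus strand: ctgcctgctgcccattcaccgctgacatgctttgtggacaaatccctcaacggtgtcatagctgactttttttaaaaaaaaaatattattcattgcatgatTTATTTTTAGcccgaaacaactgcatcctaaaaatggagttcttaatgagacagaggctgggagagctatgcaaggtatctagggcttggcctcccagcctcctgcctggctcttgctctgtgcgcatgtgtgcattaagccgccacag
Cacna1s promoter, chr13:50045418-50045667, plus strand: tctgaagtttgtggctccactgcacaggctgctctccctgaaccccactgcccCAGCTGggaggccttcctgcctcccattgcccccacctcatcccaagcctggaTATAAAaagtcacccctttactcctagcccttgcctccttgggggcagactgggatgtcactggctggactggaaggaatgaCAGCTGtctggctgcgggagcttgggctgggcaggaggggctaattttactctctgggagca
Both strands were searched, and the motifs were chosen after the sequences had been seen. CAGCTG occurred 222 bases before the start of Casq1 and 197 and 62 bases before that of Cacna1s, in 3 of the 10 promoters in all (the third is Atp2a1), and in 12.0% of 33469 rat promoters of this length. Cacna1s also held TATAAA 144 bases before its start, the only one of the 10 to do so, against 12.9% of all promoters. Casq2 held the only MEF2 match among the 10, TTATTTTTAG at 149 bases before its start, against 2.96% of all promoters. The general E-box CANNTG, which includes CAGCTG, was in all 10 promoters and in 65.5% of all, and the CArG box in 0 of the 10 and 1.50% of all. These are matches of letters and not measured sites.

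With DOX all 7 tested genes were called, 4 lower and 3 higher, where 38.9% of 11288 genes were called (14.1% lower and 24.8% higher). The 7 genes were chosen with earlier results of these data known, and Cacna1s passed the filter only through libraries that received DOX. The count is therefore no test of the set. A gene was called at an adjusted p under 0.05 in limma (Benjamini-Hochberg over all genes tested). Fold changes here are on the log2(FPKM + 1) scale with their SE. The labels do not say that the libraries of a group came from separate cultures, so each p measures the spread between these libraries, which may be technical. The split of all calls, 2802 higher and 1589 lower, became 2117 and 2149 when each library was scaled to a common median and 2450 and 2299 with quantile normalization. The 7 genes kept their direction under both.

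The SR uptake gene Atp2a2 and the storage gene Casq2 fell. Values per gene do not separate the transcript forms of Atp2a2, so no form of the pump can be named. Atp2a2 was at 110, 105 and 108 FPKM in the con libraries and at 68.2, 71.1 and 77.5 in DOX. Every DOX library lay below every con library. Atp2a2 fell by 0.57 ± 0.19 on the log2 scale (adjusted p = 0.0299), to 67.1% of its con level. Leaving out any 1 con library, or DOX replicate 1 or 2, raised this to 0.0615–0.0893. Leaving out the third DSI+DOX library, which lies outside the comparison but enters the shared variance, lowered it to 1.94e-06. Calls over all genes then went from 38.9% to 57.1%. Casq2 was at 70.8, 71.2 and 70.7 FPKM in con and at 50.7, 49.5 and 47.6 in DOX. The groups were far apart relative to their spread, and Casq2 fell by 0.52 ± 0.05 (adjusted p = 3.39e-06), to 69.5% of con. Casq1, the calsequestrin of fast skeletal fibres, went the other way, from 8.49, 8.31 and 6.92 FPKM in con to 10.0, 9.59 and 10.6 in DOX. The groups did not overlap, and the log2 fold change was 0.32 ± 0.09 (adjusted p = 0.0110). That call was lost with median scaling (adjusted p = 0.0818) and without con replicate 3 (0.0620). Pln, tested only with no filter on low values, was at 0.545, 0.253 and 0.433 FPKM in con and 0.216 to 0.288 in DOX, which overlap (adjusted p = 0.110).

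The pore subunits of the L-type channel moved in opposite directions. Cacna1c was at 5.66, 5.75 and 6.39 FPKM in con and at 2.73, 3.42 and 3.77 in DOX, with no overlap. It fell by 0.69 ± 0.18 (adjusted p = 0.00852), to 55.7% of con. Cacna1s was at 0.191, 0.268 and 0.303 FPKM in con and at 1.90, 1.89 and 1.93 in DOX. It passed the filter only through the libraries that received DOX, so its call had to come from a group where it is high. Its log2 fold change was 1.21 ± 0.07, and the ratio of mean FPKM was 7.50. Its p with the filter is therefore not given, and with no filter on low values the adjusted p was 2.07e-08.

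Calcium extrusion and store sensing also separated. Slc8a1 was at 11.9, 11.5 and 12.7 FPKM in con and at 3.69, 5.51 and 6.34 in DOX, the largest fall among the 7 genes. It fell by 1.10 ± 0.36 (adjusted p = 0.0262), to 43.0% of con. Leaving out any 1 con library, or DOX replicate 1 or 2, raised this to 0.0522–0.105, and leaving out the third DSI+DOX library lowered it to 1.47e-05. Stim1 was at 20.4, 20.4 and 21.0 FPKM in con and at 25.3, 26.6 and 30.1 in DOX. The lowest DOX library was above the highest con library, and Stim1 rose by 0.39 ± 0.08 (adjusted p = 0.00222), to 132% of con. Ryr1 was at 0.134 to 0.156 FPKM in con and 0.135 to 0.188 in DOX, overlapping and far below 1 (adjusted p = 0.563 with no filter).

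**Figure D2:**
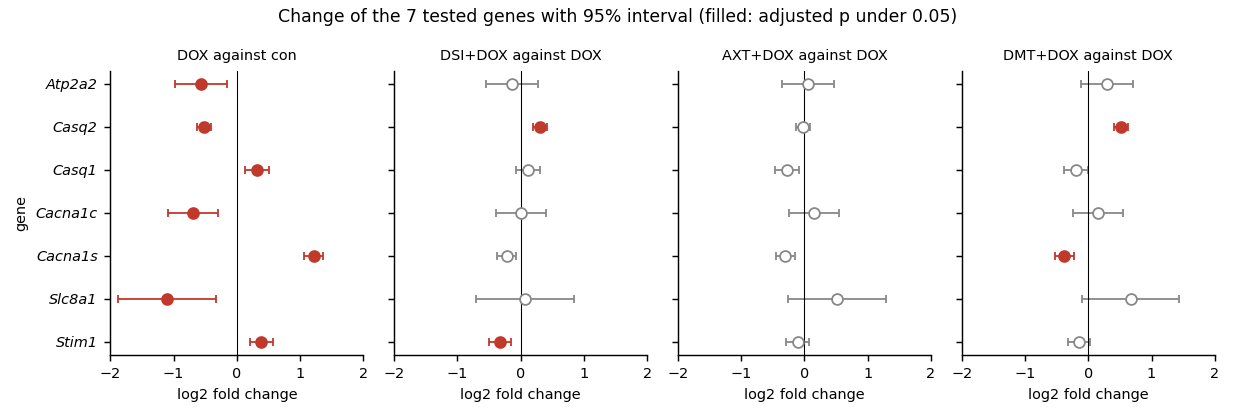
Log2 fold change (x axis) of the 7 tested genes (y axis) in the 4 main comparisons, with 95% intervals; filled points have an adjusted p under 0.05. All 7 are filled for DOX against con, 2 for DSI+DOX, 0 for AXT+DOX and 2 for DMT+DOX against DOX. Over all genes 38.9%, 7.88%, 0.691% and 10.5% were called, in that order. Cacna1s passed the filter only through libraries that received DOX, so its filled point for DOX against con is no test.

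In 3 gene pairs, taken with earlier results of these data known, the paralogue that is low in con had a higher share in DOX. Casq1 made up 10.0 ± 0.971% of the summed FPKM of Casq1 and Casq2 in con and 17.0 ± 1.06% in DOX. Cacna1s made up 4.08 ± 0.704% of the Cacna1s and Cacna1c sum in con and 36.8 ± 3.77% in DOX. Atp2a3, which encodes the SERCA3 pump of non-muscle cells, made up 0.830 ± 0.177% of the Atp2a2 and Atp2a3 sum in con and 7.51 ± 0.661% in DOX. In all 3 pairs the con and DOX libraries did not overlap, and the exact two-sided permutation test gave p = 0.1, the smallest that 3 against 3 allows. The shares restate the opposite changes of the genes in each pair, so the test adds no support to them. In AXT+DOX the shares were 14.4 ± 0.546%, 26.7 ± 3.41% and 4.83 ± 0.911%, and in DMT+DOX 10.9 ± 0.736%, 24.8 ± 1.02% and 3.87 ± 0.139%, in the same order. Both groups lay below DOX without overlap in each pair (exact permutation p = 0.1). The Casq1 share in DMT+DOX, 10.0% to 11.5%, overlapped that of con, 8.91% to 10.7%. In DSI+DOX each share overlapped DOX, and replicate 3 had the highest value in all 3 pairs.

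**Figure D3:**
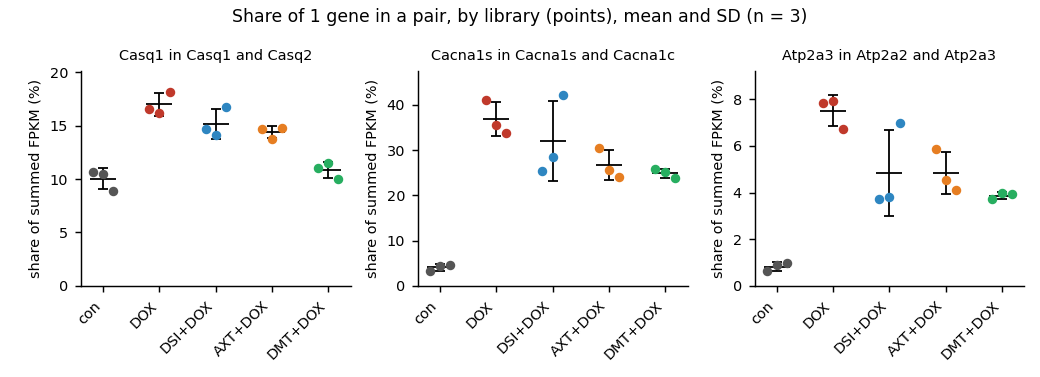
Share (y axis, percent of summed FPKM) of Casq1, Cacna1s and Atp2a3 in their gene pairs by group (x axis); points are the 3 libraries, bars the mean and SD. The shares were 10.0%, 4.08% and 0.830% in con and 17.0%, 36.8% and 7.51% in DOX, and the lowest mean among the groups with DOX was in DMT+DOX for all 3.

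Around these genes, 7 lists of other calcium genes held 123 symbols, of which 114 were in the table and 77 were tested. With DOX 14 rose and 17 fell, 40.3% of those tested, close to the 38.9% of all genes. Of all genes 24.8% were called higher and 14.1% lower, the shares to set beside each list below, and each list holds few genes. The median log2 fold change of all tested genes was 0.05. Among release channels and proteins of the couplon, the junction where channels meet the SR, 0 rose and 3 fell of 12 tested, with a median of -0.32. Those were Tmem38b, a counter-ion channel of the SR, from 12.2 to 8.56 FPKM (log2 fold change -0.47, adjusted p = 0.000884), its relative Tmem38a (-0.32, adjusted p = 0.0264) and the caveolin gene Cav3 (-0.52, adjusted p = 0.0272). The call of Tmem38a was lost without con replicate 2 or 3 or DOX replicate 1 or 2, and that of Cav3 without any con library or DOX replicate 2 or 3 (adjusted p up to 0.104 and 0.0960). Tmem38a was also lost with quantile normalization (0.0690). Ryr2 and Ryr3 did not exceed 0.0550 and 0.0951 FPKM in any library. The other genes of this list were mixed. Trdn and Jph1 did not exceed 0.0487 and 0.0397 FPKM, but Jph2 was at 20.7–28.0, Bin1 at 16.4–24.8 and Asph at 2.61–5.67 FPKM. The 3 ryanodine receptor genes together made up 0.790 ± 0.161% of ryanodine and inositol trisphosphate receptor FPKM in con. The release channel with the most RNA was Itpr3, at 14.9 ± 0.622 FPKM in con and 11.7 ± 2.28 in DOX, where the change was not called.

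Among SR uptake and luminal genes 1 rose and 1 fell of 7 tested. Atp2a3 was at 0.700, 0.939 and 1.06 FPKM in con and at 5.81, 6.12 and 5.61 in DOX, with a log2 fold change of 1.85 ± 0.10. Its DOX libraries all lay several-fold above con. Only 1 con library reached 1 FPKM, so the gene passed the filter through the libraries that received DOX, and its p is not given. Calr, the luminal calcium buffer calreticulin, fell from 853 to 677 FPKM (log2 fold change -0.33, adjusted p = 0.00638).

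Of the store-operated entry list 3 of 8 tested rose and 0 fell, a share near that of all genes called (38.9%, with 24.8% higher). Orai1, the pore that STIM1 opens, rose from 18.9 ± 1.84 to 29.6 ± 0.388 FPKM (log2 fold change 0.62, adjusted p = 0.00586). Orai2 rose from 7.12 to 15.1 FPKM (0.99, adjusted p = 1.54e-06) and Orai3 from 6.23 to 8.91 FPKM (0.45, adjusted p = 0.00227). These 3 genes and Stim1 were higher in every DOX library than in every con library, a separation seen in 62.5% of all tested genes in one direction or the other. Plasma membrane and Golgi extrusion had 0 higher and 3 lower of 7 tested, with a median log2 fold change of -0.31. The potassium-dependent exchanger Slc24a3 fell from 24.7 to 11.2 FPKM (-1.07, adjusted p = 0.00498) and the plasma membrane pump Atp2b4 from 4.38 to 2.25 FPKM (-0.73, adjusted p = 0.00163). Slc8b1, the sodium-lithium-calcium exchanger, which sits in the inner mitochondrial membrane and so outside the list's name, fell from 6.19 to 4.81 FPKM (-0.31, adjusted p = 0.0107, and 0.0505 without DOX replicate 3).

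Voltage-gated subunits had 1 higher and 2 lower of 9 tested. Cacna2d1, the auxiliary subunit that carries L-type pores to the membrane, fell from 24.5 ± 2.98 to 9.83 ± 1.46 FPKM (log2 fold change -1.24, adjusted p = 0.0191). Its call was lost without con replicate 1 or 3 or DOX replicate 1 or 2 (adjusted p 0.0506–0.0646). The T-type pore Cacna1g fell from 3.64 to 2.75 FPKM (-0.30, adjusted p = 0.0292), a call lost without con replicate 2 or 3 or DOX replicate 1 or 2 (0.0716–0.106). Mitochondrial uptake had 5 higher and 1 lower of 11 tested, with a median of 0.25. Letm1, a mitochondrial ion exchanger, rose from 22.4 to 31.6 FPKM (0.48, adjusted p = 0.00642). Mcub, a dominant-negative subunit of the mitochondrial uniporter, was at 0.635, 0.286 and 0.395 FPKM in con and 2.40, 2.17 and 1.69 in DOX (log2 fold change 1.10). Like Cacna1s, Mcub passed the filter only through libraries that received DOX, so its p is not given.

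The list of calcium sensors, kinases and calcineurin genes had 4 higher and 7 lower of 23 tested. All 3 calmodulin genes were among the lower ones, with Calm3 going from 109 to 78.0 FPKM (log2 fold change -0.48, adjusted p = 0.000600). The phosphodiesterase gene Pde4d (-0.998, adjusted p = 0.00913) and the anchoring protein gene Akap6 (-0.89, adjusted p = 0.000256) also fell. Pvalb, the buffer parvalbumin, was listed at 0 in all 3 con libraries and was at 1.67, 2.02 and 1.62 FPKM in DOX. Only those libraries and AXT+DOX replicate 1 reached 1 FPKM, so the gene entered the test through the group where it is high, and its p is not given.

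**Figure D4:**
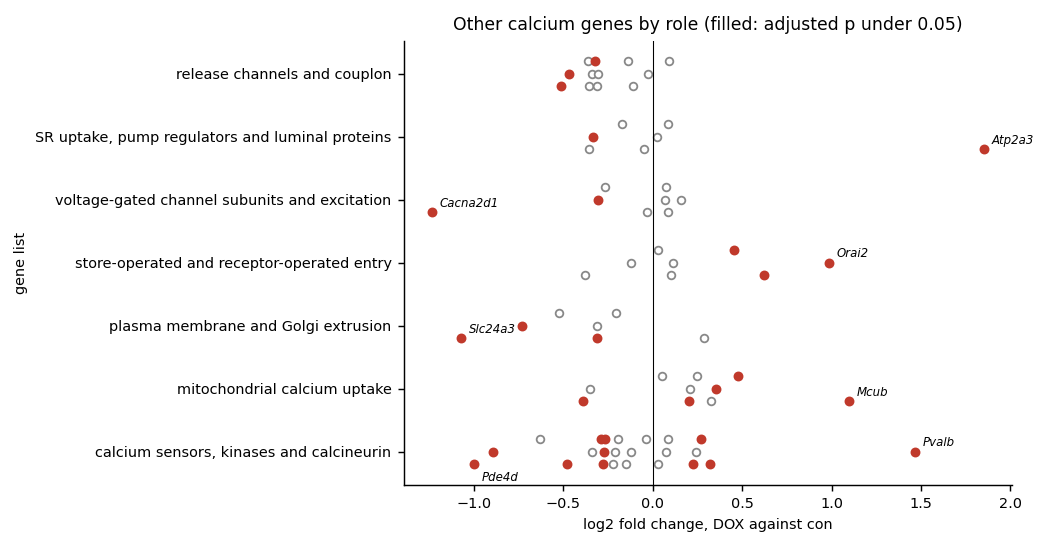
Log2 fold change between DOX and con (x axis) of 75 of the 77 tested genes in 7 lists of calcium genes (y axis); each point is a gene, filled where the adjusted p was under 0.05. The filled points are all below 0 for release (3 of 12 tested) and extrusion (3 of 7), and all above 0 for store-operated entry (3 of 8). Over all genes 14.1% were called lower and 24.8% higher. Atp2a3, Mcub and Pvalb are filled too, but they passed the filter through libraries that received DOX.

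With diosmetin the store gene Casq2 stood at its con level. In DMT+DOX against DOX 1 of the 7 tested genes rose and 1 fell, where 10.5% of all genes were called (2.93% higher and 7.53% lower). Those 1181 genes split into 331 higher and 850 lower, and into 490 and 434 with median scaling and 543 and 680 with quantile normalization. Casq2 was at 70.0, 71.7 and 71.6 FPKM in DMT+DOX, against 50.7, 49.5 and 47.6 in DOX. All DMT+DOX libraries lay well above all DOX libraries, and the log2 fold change was 0.52 ± 0.05 (adjusted p = 3.19e-05). The skeletal muscle, cardiac, smooth muscle and fibroblast marker sums were also higher in DMT+DOX than in DOX without overlap, at 69.4–75.2 against 39.0–41.0 FPKM, 522–600 against 421–469, 3718–3995 against 2877–3056 and 3196–3347 against 2472–2896, and their part in this difference was not tested. Against con, Casq2 in DMT+DOX differed by 0.0031 (95% interval -0.11 to 0.11, adjusted p = 0.977). Cacna1s was at 1.29, 1.28 and 1.14 FPKM in DMT+DOX and fell by 0.38 ± 0.07 from DOX (adjusted p = 0.00346), a value between DOX and con.

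For Atp2a2 and Slc8a1 the comparison of DMT+DOX with DOX depended on a library of another group. Atp2a2 was at 91.1, 93.3 and 82.8 FPKM in DMT+DOX, above all DOX libraries, but the log2 fold change of 0.30 ± 0.19 was not called (adjusted p = 0.412). Slc8a1 was at 9.36, 9.33 and 7.40 FPKM, also above DOX without overlap, and its log2 fold change of 0.67 ± 0.36 was not called (adjusted p = 0.307). Without DSI+DOX replicate 3 the same fold changes had adjusted p = 0.00259 and 0.00365. With only the DMT+DOX and DOX libraries in the fit they had 0.0158 and 0.0193. Casq1 (log2 fold change -0.20, adjusted p = 0.196), Cacna1c (0.15, adjusted p = 0.728) and Stim1 (-0.15, adjusted p = 0.335) were not called. For Stim1 the 95% interval ran from -0.33 to 0.03.

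Of the 77 other calcium genes 5 rose and 8 fell with DMT+DOX against DOX (16.9%). Tmem38a rose from 4.18 to 7.04 FPKM (log2 fold change 0.63, adjusted p = 0.00170), above its con mean of 5.48. Orai2 fell from 15.1 to 9.75 FPKM (-0.58, adjusted p = 0.000987), Atp2a3 from 5.85 to 3.59 FPKM (-0.58, adjusted p = 0.00164) and Mcub from 2.08 to 1.05 FPKM (-0.59, adjusted p = 0.00411). In these 3 genes that fell the group mean stayed above that of con. Jsrp1, a couplon protein that binds the L-type channel (0.74, adjusted p = 0.0272), Atp2b4 (0.53, adjusted p = 0.0391) and Akap6 (0.55, adjusted p = 0.0262) passed the test too. These calls depended on single libraries. Jsrp1 and Atp2b4 lost theirs without any 1 library of either group (adjusted p up to 0.105 and 0.137), and Akap6 without replicate 1 or 2 of either group (up to 0.111). With median scaling Jsrp1 was at an adjusted p of 0.0545, and with a pseudocount of 0.1, no filter or the replicate block Atp2b4 was at 0.0567, 0.0619 and 0.0738. Pvalb, at 0.482, 0.347 and 0 FPKM in DMT+DOX, is among the 8 lower genes, but it entered the test only through the higher group.

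Danshen injection differed from DOX in 2 of the 7 genes, 1 higher and 1 lower, where 7.88% of all genes were called (1.47% higher and 6.41% lower). Those 889 genes split into 166 higher and 723 lower, and into 278 and 197 with median scaling and 351 and 402 with quantile normalization, since the median log2 fold change of all genes was -0.11 and became 0.04 and -0.0024. Casq2 was at 60.3, 64.3 and 59.3 FPKM, between DOX and con without overlapping either. Its log2 fold change from DOX was 0.31 ± 0.05 (adjusted p = 0.00311), and that from con -0.21 ± 0.05 (adjusted p = 0.00693). The call against DOX was lost when only the DSI+DOX and DOX libraries entered the fit (adjusted p = 0.289) and that against con with median scaling (0.163). Stim1 was at 23.0, 22.8 and 19.0 FPKM, below every DOX library, with a log2 fold change of -0.33 ± 0.08 (adjusted p = 0.0308). The Stim1 call was lost with median scaling (adjusted p = 0.158), with quantile normalization (0.0593), with only the compared groups in the fit (0.412), without DOX replicate 2 (0.0829) and without DOX replicate 3 (0.110).

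Atp2a2, Slc8a1 and Cacna1c had their lowest value of all 15 libraries in DSI+DOX replicate 3, the library that stood apart. Atp2a2 was at 84.2, 80.5 and 41.5 FPKM in DSI+DOX. Slc8a1 was at 8.80, 8.31 and 1.80 FPKM, and Cacna1c at 4.56, 3.81 and 1.95 FPKM. In that library they were lower than the mean of the other 2 by 0.97, 1.77 and 0.81 on the log2 scale, against a median of 0.13 lower over all tested genes, whereas Casq2 was lower by 0.07. With all libraries the log2 fold changes from DOX were -0.14 for Atp2a2, 0.06 for Slc8a1 and 0.0017 for Cacna1c, none called (adjusted p = 0.643, 0.915 and 0.995). Without it they were 0.19 (adjusted p = 0.0891), 0.65 (adjusted p = 0.0174) and 0.27, so that Slc8a1 passed the test. Of all genes 11.8% were then called. With array weights, which give that library less weight, Atp2a2 was higher than DOX by 0.17 (adjusted p = 0.0263) and Slc8a1 by 0.55 (adjusted p = 0.00209). Calls over all genes then went from 889 to 3731. Cacna1s (-0.22, adjusted p = 0.0671) and Casq1 (0.11, adjusted p = 0.398) were not called. Among the other calcium genes 2 rose and 4 fell of 77 (7.79%). Atp2a3 fell from 5.85 to 3.19 FPKM (-0.71, adjusted p = 0.000699) and Orai2 from 15.1 to 9.85 FPKM (-0.57, adjusted p = 0.00207), calls that were lost only with the compared groups alone in the fit (adjusted p = 0.0894 and 0.186). Jsrp1, Calm3, Mcub and Micu2 made up the rest, with adjusted p from 0.0234 to 0.0482, and each lost its call under 8 or more other settings.

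With astaxanthin 0 of the 7 genes were called against DOX, where 0.691% of all genes were (0.0709% higher and 0.620% lower). At an unadjusted p under 0.05 there were 2, Casq1 and Cacna1s, as were 7.85% of all genes. Casq2 was at 47.6, 49.7 and 47.6 FPKM in AXT+DOX and overlapped DOX. Its log2 fold change from DOX was -0.03 (95% interval -0.14 to 0.08, adjusted p = 0.993), an interval that does not reach the fold change of either other addition. Cacna1s was at 1.45, 1.24 and 1.37 FPKM, below every DOX library (log2 fold change -0.30 ± 0.07, adjusted p = 0.0839). It passed the test when the third DSI+DOX library was left out (adjusted p = 0.0401), with no filter on low values (0.0336) and without the intensity trend (0.0485). With that library left out 3.30% of all genes were called. Casq1 was at 8.21, 7.94 and 8.24 FPKM, also below every DOX library (-0.28 ± 0.09, adjusted p = 0.295). Of all tested genes 17.6% did not overlap in this comparison. Slc8a1 was at 6.34, 8.58 and 8.33 FPKM with a log2 fold change of 0.52 ± 0.36 (adjusted p = 0.879, or 0.0672 with the third DSI+DOX library left out). Atp2a2 (0.06), Cacna1c (0.14) and Stim1 (-0.11) had adjusted p of 0.919 or more. Of the 77 other genes 0 rose and 2 fell (2.60%), namely Atp2a3, from 5.85 to 3.81 FPKM (-0.51, adjusted p = 0.0257), and Rrad, a GTPase that inhibits L-type channels, from 45.6 to 31.4 FPKM (-0.53, adjusted p = 0.0206). Both calls were lost without any 1 DOX library or AXT+DOX replicate 2 or 3 (adjusted p up to 0.149 and 0.118). Atp2a3 also lost it with a pseudocount of 0.1 (0.112), quantile normalization (0.0535), only the compared groups in the fit (0.0530) and the replicate block (0.0811), and Rrad with median scaling (0.143) and the replicate block (0.0645).

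**Figure D5:**
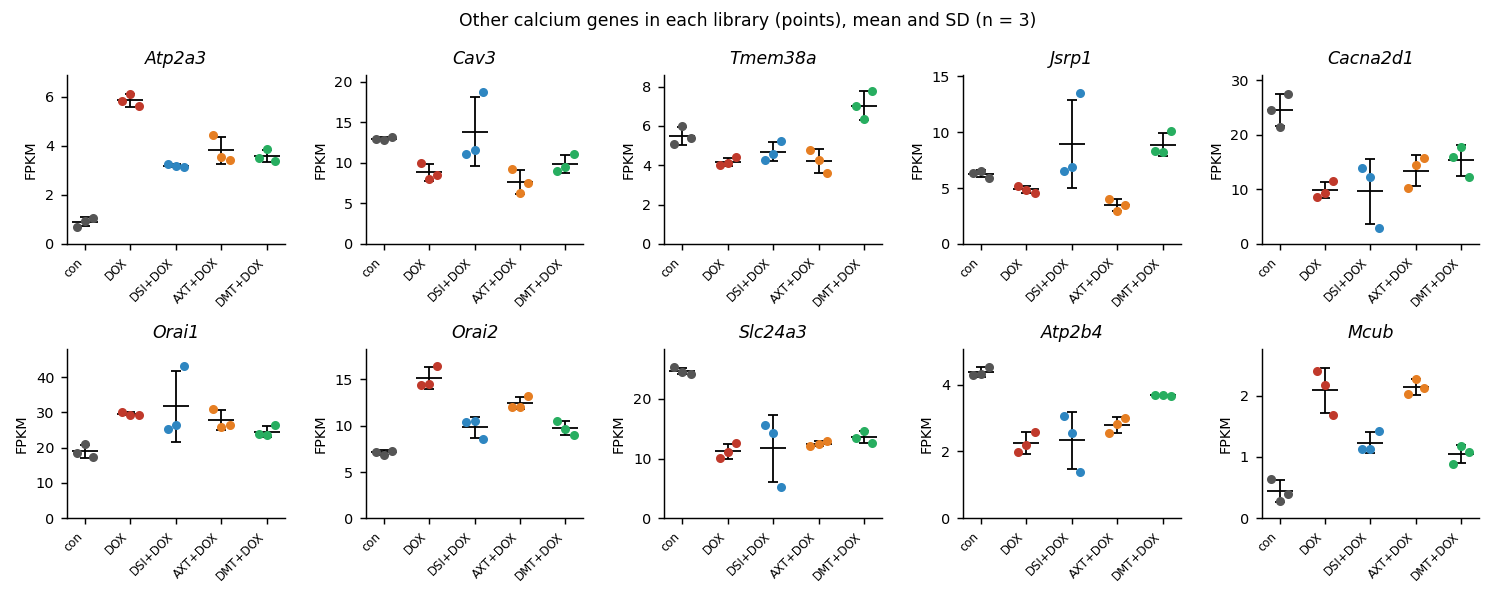
FPKM (y axis, from 0) of 10 other calcium genes by group (x axis); points are the 3 libraries, bars the mean and SD. Atp2a3 was at 0.700–1.06 FPKM in con, 5.61–6.12 in DOX and 3.12–4.43 in the 3 groups with an addition, and Orai2 was at 14.4–16.5 in DOX and 8.56–10.6 in DSI+DOX and DMT+DOX.

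The additions were also compared with each other. In DSI+DOX against AXT+DOX 2 of 7 genes were higher and 0 lower, where 10.5% of all genes were called (2.50% higher): Casq2 (log2 difference 0.34, adjusted p = 0.00342) and Casq1 (0.39, adjusted p = 0.0175). With only those 2 groups in the fit neither passed (adjusted p = 0.268 and 0.286), and Casq1 was not called without AXT+DOX replicate 2 (0.0716) or 3 (0.0672). In AXT+DOX against DMT+DOX Casq2 was lower (-0.55, adjusted p = 4.19e-05) and no other of the 7 genes was called, where 4.70% of all genes were (2.12% lower). In DSI+DOX against DMT+DOX 0 of 7 were called, where 1.68% of all genes were, with 5 at an unadjusted p under 0.05, as were 23.8% of all genes. Casq2 came nearest (-0.21, adjusted p = 0.0578). Leaving out the first DSI+DOX library gave it 0.0390. The order of Casq2 by group was thus con and DMT+DOX, then DSI+DOX, then DOX and AXT+DOX, with overlap only within each of these pairs.

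Against con, 6 of 7 genes were called in DSI+DOX (41.8% of all genes), 4 in AXT+DOX (35.5%) and 3 in DMT+DOX (26.2%). Cacna1s was higher and Cacna1c lower than con in all 3 groups. Cacna1c was at 58.0%, 63.3% and 63.1% of its con mean in that order, with adjusted p = 0.00984, 0.0322 and 0.0425. Leaving out any 1 con library ended the last 2 of these calls (adjusted p up to 0.101 and 0.130), as did AXT+DOX replicate 1 or 2 in the first case and any DMT+DOX library in the second. Stim1 was called higher than con in AXT+DOX and DMT+DOX, but the calls were lost without con replicate 1 or 2 and without AXT+DOX replicate 3 in the one case or any 1 con or DMT+DOX library in the other (adjusted p up to 0.0621 and 0.172). With the third DSI+DOX library left out, the counts were 6 in DSI+DOX, 6 in AXT+DOX and 5 in DMT+DOX, because Atp2a2 and Slc8a1 were then also called lower in the last 2 groups. Calls among all genes were then 40.6%, 53.6% and 45.1%.

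Across the 15 libraries the log2 level of Atp2a2 ran closest to those of Gnptab (Pearson r = 0.993), Peg3 (0.988), Fzd7 (0.987), Lamc1 (0.985) and Cblb (0.983) among 7816 genes with a mean of 5 FPKM or more. Leaving out DSI+DOX replicate 3 put Peg3 (0.992), Gnptab (0.984), Myo1d (0.979), Arhgap28 (0.978) and Ano6 (0.977) first. Among the calcium genes Atp2a2 ran with Slc8a1 (0.954, and 0.896 without that library) and Cacna1c (0.920 and 0.891). Its r with Casq2 was 0.524, and 0.816 without it. The points share their groups and libraries, so these values describe the 15 libraries only.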

How the data were processed

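Total RNA from TRIzol was made into 15 H9c2 libraries with the NEBNext Ultra kit, according to the labels' protocols. The authors deposited FPKM values per gene and library, per the file headers. Per the submitters' processing notes, reads went through Trimmomatic, HISAT2 and featureCounts (no versions listed), with the build Rnor_6.0. How counts became FPKM is not given in the sources used here. Whole reads could not be recovered, so depth is unknown and no count model or counting interval was used.

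After removal of 16 duplicates from 19344 entries, genes with 1 FPKM or more in at least 3 libraries (11288) were fitted on log2(FPKM + 1) with limma 3.58.1 (R 4.3.3), a mean per group, all 15 libraries, an intensity trend and two-sided tests. Groups came from the sample titles. DOX was compared with con and every addition with DOX (4 main comparisons), and the other 6 pairs of groups were secondary. The fit was tested on simulated data. Array weights used limma's gene-by-gene method, because the default did not converge. Likeness to Atp2a2 was Pearson r over log2 values. Figures used matplotlib 3.10.9.

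Members, lists and tests were chosen with earlier results of these data known. In each list the text names the called genes with the largest change, up to 3 for DOX and up to 2 for each addition, other genes with a stated role being chosen after their values were seen. Values of 2 genes in the lists, which enter the counts, are not reported here. Reads shared between near-identical paralogues, as the calmodulin genes, or with antisense genes cannot be told apart. Deviations of same-numbered libraries from their group means correlated at over 0.1 in every pair only for DSI+DOX with DMT+DOX (0.238, 0.337 and 0.517), where the replicate block changed no call of the 7 genes.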

Additional observations from a re-analysis of the deposited data

Results flagged for a closer look

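The levels of 2 calsequestrin genes differed between groups that received DOX with different additions, by a direct limma test of the groups across all genes. Casq2 was higher in DSI+DOX than in AXT+DOX by 0.34 on the log2 scale (higher in 3 of 3 libraries). It differed by -0.55 in AXT+DOX against DMT+DOX, lower in 3 of 3 libraries. Casq1 was higher in DSI+DOX than in AXT+DOX by 0.39, in 3 of 3 libraries. With only the 2 compared groups in the fit, the DSI+DOX against AXT+DOX differences had adjusted p = 0.268 for Casq2 and 0.286 for Casq1, and neither passed the test.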

How the results depend on the processing

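The 28 log2 fold changes of the 7 genes in the 4 main comparisons kept direction and side of the threshold in 19 to 28 of 28 under each alternative, except that the filter at 5 FPKM left 24 to compare, all alike. The depth behind these FPKM is unknown, which limits what can be said of Ryr1, Pln and Cacna1s. The cause of the changes below was not tested.

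The number of the 7 genes called became, for DOX against con, 2 with a minimum change of 2-fold. For DSI+DOX against DOX it became 1 with median scaling, quantile normalization or the replicate block, 0 with only the compared groups or a 2-fold minimum, and 5 with array weights. For AXT+DOX against DOX it became 1 with no filter or no intensity trend and 3 with array weights. For DMT+DOX against DOX it became 1 with a filter at 5 FPKM, 4 with only the compared groups, 5 with array weights and 0 with a 2-fold minimum. Against con it became 1 for DSI+DOX with only the compared groups or a 2-fold minimum, and 0 for AXT+DOX with a 2-fold minimum. For DMT+DOX against con it became 1 with a pseudocount of 0.1, no filter or the replicate block, 5 with only the compared groups or array weights, and 0 with a 2-fold minimum. Between additions it became 0 for DSI+DOX against AXT+DOX with only the compared groups or a 2-fold minimum. For DSI+DOX against DMT+DOX it became 1 with no filter or quantile normalization and 2 with array weights, and for AXT+DOX against DMT+DOX 2 with array weights and 0 with a 2-fold minimum. Leaving out 1 library at a time gave 4–7, 1–3, 0–1 and 2–4 called in the main comparisons in the order of the text, 5–6, 2–6 and 1–5 for the additions against con, and 1–3, 0–3 and 1–2 between additions. Except without DSI+DOX replicate 3, calls over all genes under these settings were counted for the 4 main comparisons only. The other changed counts have no share of all genes beside them and are no result about the 7 genes.

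Over all genes, DOX against con had 4391 calls, 7492 with array weights and 578 with a 2-fold minimum. DSI+DOX against DOX had 889, and 475 with median scaling, 1 with only the compared groups, 3731 with array weights, 569 with the replicate block and 19 with a 2-fold minimum. AXT+DOX against DOX had 78, and 41 with a pseudocount of 0.1, 44 with a filter at 5 FPKM, 162 with no filter, 1972 with array weights, 31 with the replicate block and 1 with a 2-fold minimum. DMT+DOX against DOX had 1181, and 2252 with only the compared groups, 4201 with array weights and 55 with a 2-fold minimum. Without 1 library the counts ran over 3496–6433, 366–2531, 12–372 and 672–2821.

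The sign of 12 log2 fold changes, none called in the main comparison of its groups, turned under some setting. Against DOX in DSI+DOX, Atp2a2 was 0.017 with median scaling and 0.17 with array weights (-0.31 to 0.19 without 1 library), Cacna1c was -0.015 with a pseudocount of 0.1 (-0.19 to 0.27), and Slc8a1 ran from -0.25 to 0.65. Casq2 in AXT+DOX against DOX was 0.0027 with quantile normalization (-0.052 to -0.0077). Against con, Casq1 in AXT+DOX was -0.026 with median scaling and -0.037 with quantile normalization (-0.042 to 0.089), and Casq2 in DMT+DOX was -0.040 with quantile normalization (-0.0027 to 0.014). In DSI+DOX against AXT+DOX, Atp2a2 was 0.092 (-0.38 to 0.13) and Slc8a1 0.0028 (-0.77 to 0.14) with array weights. Cacna1c there was 0.015 with median scaling, 0.050 with quantile normalization and 0.057 with array weights (-0.33 to 0.13). In DSI+DOX against DMT+DOX, Cacna1c was 0.0013 with quantile normalization and 0.051 with array weights (-0.33 to 0.12). In AXT+DOX against DMT+DOX, Stim1 was -0.027 with median scaling and -0.013 with quantile normalization (0.00083 to 0.077), and Cacna1c ran from -0.091 to 0.066 without 1 library.

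By their titles the samples share only a number. Outside DSI+DOX with DMT+DOX, deviations of same-numbered libraries did not correlate at over 0.1 in every pair. In each comparison 0 to 4 of the 6 libraries correlated best with their own number. For AXT+DOX with DOX it was 4 of 6, the deviations correlated at 0.144, 0.0675 and 0.0930, and the replicate block took calls over all genes from 78 to 31. The replicate block changed the call of 1 of the 28 main results, that of Stim1 in DSI+DOX against DOX (adjusted p = 0.0629).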
